A study of Mus musculus with 2 samples.

Results

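A total of 41 genes of sterol and fatty acid synthesis, of its regulation and of cholesterol efflux were compared between CD4 T cells of 2 mouse spleen cell cultures. They were taken from the arrays by gene name, as the noncontrol probes that carry the name of a listed gene, and form 41 of the 27665 named genes on the arrays. The list was split by role into 8 genes of the mevalonate pathway, 10 of squalene and sterol synthesis, 7 of SREBP control and sterol uptake, 11 of fatty acid synthesis and 5 of LXR signalling and efflux.

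Sterol regulatory element binding proteins (SREBPs) are transcription factors held in the endoplasmic reticulum while sterols are plentiful, and released to the nucleus when sterols run short. SREBP2 acts mainly on genes of cholesterol synthesis and uptake, and SREBP1 mainly on genes of fatty acid synthesis and desaturation, whereas liver X receptors (LXRs) respond to oxidised sterols and act on genes of cholesterol export. In T cells, activation and division draw on newly made sterols and fatty acids for membranes, and LXR activity is known to restrain proliferation.

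Both cultures came from female OVA-TCR-Tg mice, whose transgenic T cell receptor recognises ovalbumin (OVA), and both were stimulated with OVA for 24 h before CD4+ cells were sorted. The labels give 0.1 mg/mL OVA for the co-culture and do not repeat a dose for the naive-only culture. The naive-only culture held spleen cells at 2500000 per mL. In the co-culture, spleen cells stimulated earlier with 0.1 µg/mL TSST-1, a bacterial superantigen, were mixed with naive spleen cells, the latter at 1250000 per mL. The co-culture held 2500000 cells per mL in total. The labels call the pre-stimulated cells anergic and do not say whether the sort separated them from the naive cells, nor how many mice were pooled or their age. No source used here gives the promoter that drives the transgenic receptor.

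Each culture gave 1 single-colour array. The differences therefore have no replicate check, and the cultures could not be tested against each other. The error given with a difference (±) is the scanner software's technical error on the log2 scale, which leaves out variation between cultures. It was 0.20 for the median member and at most 0.27, the value for Me1. Signals are processed intensities in the scanner's units, and a log2 difference is co-culture minus naive-only after each array was scaled to its 75th percentile (299.4 units for the naive-only array, 301.3 for the co-culture array). Probes differ in how brightly they report a transcript, so levels are compared between arrays for 1 gene, not between genes.

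The 9 T cell markers, Cd3e and Cd4 among them, were measured on both arrays and none differed by 2-fold. Their differences ran from -0.92 for Cd5 to 0.90 for Cd3d, with 3 above 2 technical errors and 2 below -2 technical errors. Their summed scaled signals, in which such shifts offset each other, were 962 in the naive-only culture and 1073 in the co-culture. Markers of other cells were also above background, so the arrays do not give the purity of the sort, and the sums below are compared between arrays and not between lists. The 9 measured B cell markers were all lower by 2-fold or more in the co-culture, with a median of -1.76. Summed over the 12 listed B cell markers, the scaled signal was 41.2 in the naive-only culture and 8.93 in the co-culture, where Pax5, Blk and Fcrla were not well above background. All 12 mitosis genes were higher by 2-fold or more in the co-culture (median 2.91, summed scaled signal 71.6 and 553). Dendritic cell markers summed to 164 and 151, of which Siglech alone gave 163 and 150. All 4 measured dendritic cell markers had negative differences, from -0.12 for Siglech to -2.87 for Flt3, and Xcr1 and Clec9a were on neither array well above background. Myeloid markers summed to 25.9 and 28.6, with 2 of the 8 measured at least 2-fold lower, and CD8 T cell markers to 0.770 and 0.641. The natural killer markers summed to 7.71 and 37.1, of which Nkg7, also expressed by other cytotoxic cells, gave 7.49 and 36.9. The rest of that list did not follow the sum, since Ncr1 was above background in the naive-only culture only, Klrk1 in the co-culture only and Klrb1c in neither. The B cell and mitosis lists, Flt3 and Nkg7 differ between the same 2 arrays as the lipid genes described below, and their part in those results was not tested. In RNA of a mixed population, fewer cells of a type and less RNA per cell cannot be told apart.

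A total of 38 of the 41 genes were measured, that is, well above background on both arrays. Of these 38 genes, 7 were higher by 2-fold or more in the co-culture, against 7.72% of the 14375 named genes measured, and 1 of the 38 was at least 2-fold lower, against 5.53%. The 7 genes are 18.4% of the measured members. The genes on the higher side were Mvd, Tm7sf2, Scd1, Scd2, Fads2, Acss2 and Me1, and the gene on the lower side was Mylip. The median difference of the 38 genes was 0.49, with quartiles of 0.12 and 0.84, and that of all measured genes was -0.05. A positive difference was seen for 30 of the 38 genes (78.9%) and for 45.6% of all measured genes. Differences above 2 technical errors were seen for 22 members (57.9%), against 20% of all measured genes, and below -2 technical errors for 4 members (10.5%), against 21.5%.

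**Figure D1:**
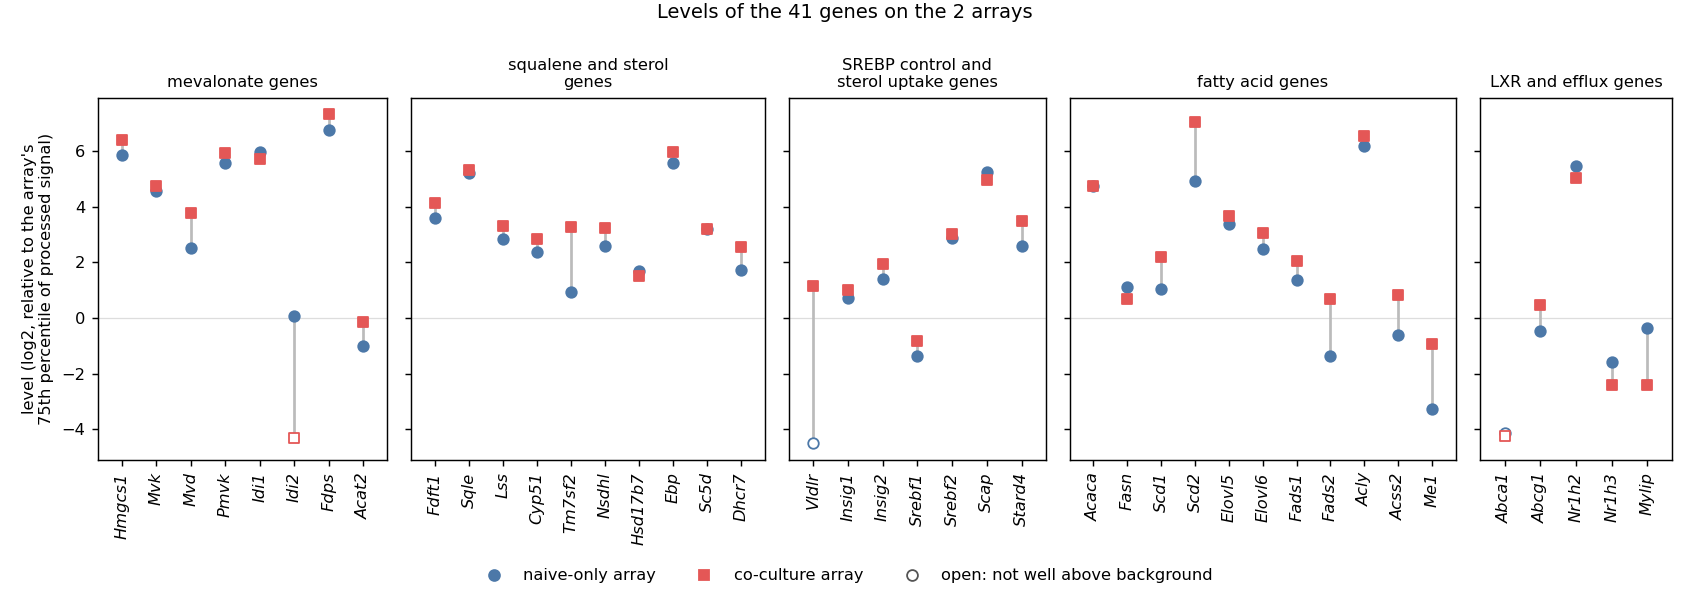
Level of each of the 41 genes on the naive-only array (blue circles) and the co-culture array (red squares), as log2 of the processed signal relative to the array's 75th percentile, in 5 panels by role. Open symbols are not well above background; each point is 1 array, without replicates. The widest gaps are those of Vldlr (upwards on the co-culture array) and Idi2 (downwards), each with an open symbol on 1 array. Among the measured genes, Tm7sf2, Scd2, Fads2 and Me1 stand apart upwards on the co-culture array and Mylip downwards, while most mevalonate and sterol genes shift little.

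Promoter sequences are shown for the members that were past 2-fold or above background on 1 array only, where a window was found for them, and for Hmgcs1, the 1 member with the sterol regulatory letters in its promoter. RefSeq promoter windows (assembly GRCm38.p6), which run from 250 bases before to 50 bases after a transcription start, were found for 33 of the 41 genes; of the members just named, Scd1 and Scd2 had none in the table used. Each was searched on both strands for TCACNCCAC, letters of a sterol regulatory element to which SREBPs bind, for CCAAT, the box bound by NF-Y, and for GGGCGG, the box bound by Sp1. NF-Y and Sp1 are known partners of SREBPs at sterol-responsive promoters. The 150 bases before the start are shown 5′ to 3′ along the gene's own strand, with matches to these letters in capitals, so that a match on the opposite strand reads as its reverse complement. The windows are chr13:119690201-119690350 (plus strand) for Hmgcs1, chr8:122443423-122443572 (minus strand) for Mvd, chr13:8952713-8952862 (plus strand) for Idi2 among the mevalonate genes, chr19:6067851-6068000 (minus strand) for Tm7sf2 among the squalene and sterol genes, and chr19:27216870-27217019 (plus strand) for Vldlr among the SREBP control and uptake genes. Those of the fatty acid genes are chr19:10101504-10101653 (minus strand) for Fads2, chr2:155517893-155518042 (plus strand) for Acss2 and chr9:86695915-86696064 (minus strand) for Me1, and that of the LXR genes is chr13:45389592-45389741 (plus strand) for Mylip. Vldlr and Me1 each have 2 listed starts, and the window with more matches is shown.
Hmgcs1: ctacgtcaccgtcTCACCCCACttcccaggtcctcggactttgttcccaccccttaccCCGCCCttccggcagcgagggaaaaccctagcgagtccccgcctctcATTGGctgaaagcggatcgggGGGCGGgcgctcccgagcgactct
Mvd: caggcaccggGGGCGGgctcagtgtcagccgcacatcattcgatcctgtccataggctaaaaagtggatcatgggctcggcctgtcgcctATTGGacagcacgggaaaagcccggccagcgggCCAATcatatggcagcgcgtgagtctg
Idi2: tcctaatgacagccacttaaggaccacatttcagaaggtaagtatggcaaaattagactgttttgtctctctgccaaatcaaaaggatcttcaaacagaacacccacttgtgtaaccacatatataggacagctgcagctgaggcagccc
Tm7sf2: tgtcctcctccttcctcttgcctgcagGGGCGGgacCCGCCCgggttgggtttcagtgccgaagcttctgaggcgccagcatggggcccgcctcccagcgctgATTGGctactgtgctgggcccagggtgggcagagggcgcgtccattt
Vldlr: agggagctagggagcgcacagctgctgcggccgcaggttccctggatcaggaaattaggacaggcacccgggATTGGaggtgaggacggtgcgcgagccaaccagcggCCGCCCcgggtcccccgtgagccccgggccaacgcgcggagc
Fads2: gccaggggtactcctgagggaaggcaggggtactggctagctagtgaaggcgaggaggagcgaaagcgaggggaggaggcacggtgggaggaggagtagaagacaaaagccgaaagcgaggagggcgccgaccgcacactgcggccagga
Acss2: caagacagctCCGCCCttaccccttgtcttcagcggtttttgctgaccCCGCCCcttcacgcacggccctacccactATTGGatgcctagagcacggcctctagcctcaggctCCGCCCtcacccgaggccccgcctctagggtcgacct
Me1: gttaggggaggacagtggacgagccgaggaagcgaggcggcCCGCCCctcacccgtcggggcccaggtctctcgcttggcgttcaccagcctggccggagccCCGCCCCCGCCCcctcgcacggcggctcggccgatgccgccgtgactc
Mylip: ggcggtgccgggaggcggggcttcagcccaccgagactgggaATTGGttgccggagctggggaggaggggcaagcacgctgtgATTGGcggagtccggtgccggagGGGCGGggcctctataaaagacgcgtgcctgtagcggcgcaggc

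Hmgcs1 carried the sterol regulatory letters 137 bases before its start, and no other matched member had them in a window. The letters occur in 1.44% of the 27025 genes with a window (1.24% of all 32851 promoter windows). CCAAT occurred in 24 of the 33 members (72.7%), against 41.1% of all genes with a window and 43.1% of the measured genes with a window. It was present in all 8 matched squalene and sterol genes, in 5 of 7 mevalonate genes, in 5 of 6 SREBP control genes, in 5 of 8 fatty acid genes and in 1 of 4 LXR genes. Mvd had CCAAT 60 and 27 bases before its start, Tm7sf2 47 bases and Vldlr 78 bases before theirs, and Mylip 108 and 67 bases before its start. Acss2 had CCAAT 73 bases before its start, beside 3 copies of GGGCGG, while Me1 had 3 copies of GGGCGG and no CCAAT in the bases shown. Idi2 and Fads2 had no match in the bases shown. GGGCGG occurred in 25 of the 33 members (75.8%), against 38.2% of all genes with a window and 66.2% of the measured genes with a window. These are matches of letters in windows at listed starts, of which some genes have more than 1, and say nothing about binding in these cells.

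The mevalonate genes, which carry acetyl-CoA to farnesyl diphosphate, were mostly a little higher in the co-culture, with 1 gene past 2-fold. Of the 8 genes 7 were measured, 6 of them had a positive difference, and the median was 0.52. Mvd, the decarboxylase that makes isopentenyl diphosphate, had a signal of 1723 in the naive-only culture and 4121 in the co-culture, a difference of 1.25 ± 0.20 (2.38-fold) by its probe on chromosome 8 at 124957750 to 124957809 (mm9). Its difference stood at percentile 94.5 of all measured genes, and it rests on 1 probe. Acat2, the cytosolic thiolase that opens the pathway, read 150 and 271 in the same order (0.85 ± 0.21). Hmgcs1, the synthase of the next step, read 17501 and 25309 (0.52 ± 0.20). Its second probe was on neither array well above background.

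The kinases between Hmgcs1 and Mvd, and the prenyl synthase after them, had smaller differences than Mvd. Mvk, which phosphorylates mevalonate, read 7087 and 8140 (0.19 ± 0.20), a difference within the technical error, and its second probe gave 0.15. Pmvk, the next kinase, read 14148 and 18382 (0.37 ± 0.20), with 0.42 by its second probe. Fdps, the farnesyl diphosphate synthase, whose product feeds both sterols and protein prenylation, read 32437 and 48427 (0.57 ± 0.20).

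Both isomerase genes had lower signals in the co-culture. Idi1, the widely expressed isopentenyl diphosphate isomerase, was at 18976 in the naive-only culture and 15723 in the co-culture, a difference of -0.28 ± 0.20. Idi2, its paralog in the same region of chromosome 13, was well above background in the naive-only culture alone, at 315 against 15.1 units. Its level there was at least 15.7-fold that on the co-culture array, taking the lowest level well above background as the floor. Only 1 of its 3 probes was above background. With the background modelled instead of subtracted and an offset of 50 units added (normexp), the same probe gave 4.47-fold. The offset by itself draws differences of dim signals towards 0. Of the named genes above background on either array, 6.34% were so on the naive-only array alone.

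The squalene and sterol genes, which turn farnesyl diphosphate into cholesterol, were all measured, and 9 of the 10 had a positive difference with a median of 0.46. Tm7sf2, a reductase that acts on the sterol left by Cyp51, was the 1 gene past 2-fold. Its signal was 569 in the naive-only culture and 2911 in the co-culture, a difference of 2.35 ± 0.20 (5.09-fold), at percentile 98.6 of all measured genes. A second probe, with signals of 146 and 753, gave 2.36. The probes lie on chromosome 19 at 6062882 to 6062941 and 6063541 to 6063600 (mm9), and their positions do not overlap.

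The enzymes before Tm7sf2 in the route stayed within 2-fold. Fdft1, the squalene synthase at the branch into sterols, read 3673 in the naive-only culture and 5370 in the co-culture (0.54 ± 0.20). Sqle, the squalene epoxidase and a main control point of the later pathway, read 11214 and 12198 (0.11 ± 0.20), a difference within the technical error. Lss, which closes the ring to lanosterol, read 2159 and 2998 (0.46 ± 0.20). Its product is demethylated by the enzyme of Cyp51, which read 1559 and 2146 (0.45 ± 0.20).

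The enzymes after it also stayed within 2-fold, and Dhcr7 came nearest. Nsdhl, which acts in the removal of methyl groups from the sterol ring, read 1815 and 2818 (0.63 ± 0.20), and its second probe gave 0.78. Hsd17b7 works with Nsdhl in this step and read 968 and 851 (-0.19 ± 0.20), with probes that disagreed in sign (-0.19 to 0.15 over 3 probes). Ebp, the sterol isomerase, read 14249 and 19177 (0.42 ± 0.20). Sc5d, the desaturase that follows, was level at 2749 and 2772 (0.00 ± 0.20). Dhcr7, which reduces the last precursor to cholesterol, read 1000 and 1792 (0.83 ± 0.20). Mevalonate and sterol enzymes together gave 2 of 17 measured genes past 2-fold (11.8%), both higher, against 7.72% of all measured genes. Above 2 technical errors were 11 of 17 (64.7%), against 20% of all measured genes.

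**Figure D2:**
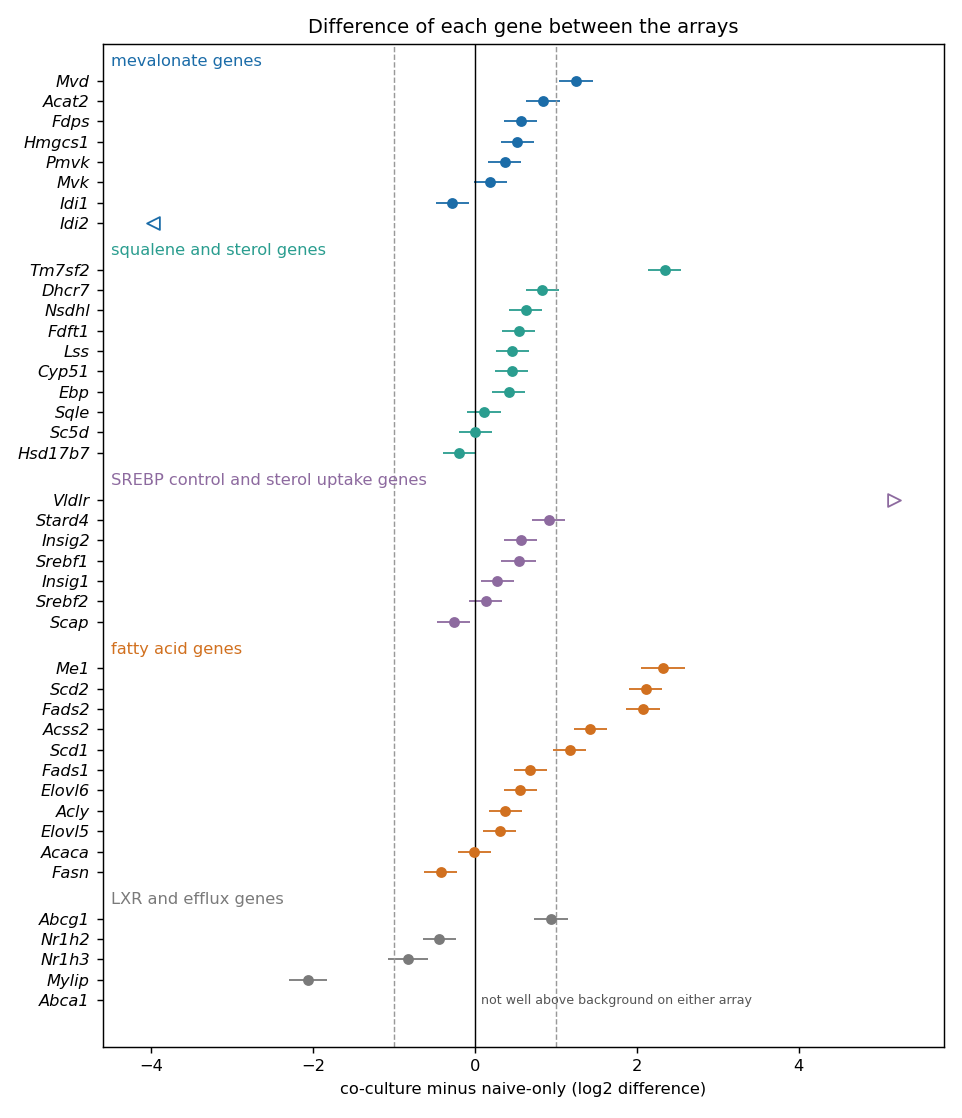
Log2 difference, co-culture minus naive-only, for each gene, grouped by role and sorted within a role. Bars are the scanner software's technical error, dashed lines mark 2-fold, and open triangles are bounds for genes above background on 1 array only. Me1, Scd2, Fads2, Acss2 and Scd1 lie right of the 2-fold line among the fatty acid genes, against Mvd and Tm7sf2 among the enzymes of the sterol route.

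Among the genes that control SREBPs and sterol uptake, none of the 6 measured genes differed by 2-fold, and the median was 0.41. Srebf2, the gene of SREBP2, read 2228 in the naive-only culture and 2465 in the co-culture (0.14 ± 0.20), and its second probe gave 0.10. Srebf1, the gene of SREBP1, read 115 and 169 (0.54 ± 0.21). Scap, the escort that carries SREBPs out of the endoplasmic reticulum, read 11310 and 9494 (-0.26 ± 0.20). The transcripts of both factors and of their escort thus stayed within 2-fold, and the arrays do not measure processing of the proteins.

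The retention factors were also within 2-fold. Insig1, which holds Scap back when sterols are plentiful and is itself an SREBP target, read 495 and 603 (0.28 ± 0.20). Insig2, which does the same under other regulation, read 785 and 1170 (0.57 ± 0.20), with 0.25 by its second probe. Stard4, a carrier of cholesterol within the cell and an SREBP2 target, was the highest measured gene of this role at 1808 and 3428 (0.91 ± 0.20), and its second probe gave 0.64.

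Vldlr, a receptor that takes up triglyceride-rich lipoproteins, was the member above background on the co-culture array alone. Its signal was 13.2 units in the naive-only culture and 673 in the co-culture, at least 36.1-fold higher on the latter with the floor described for Idi2. The normexp correction gave 10.2-fold for the same probe. A second probe read 3.72 and 5.25 units and was on neither array well above background, so the value rests on the probe at 27324050 to 27324109 of chromosome 19 (mm9). Of the named genes above background on either array, 5.08% were so on the co-culture array alone.

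Fatty acid genes held 5 of the 8 members past 2-fold. All 11 were measured, with a median of 0.68. At least 2-fold higher were 5 (45.5%, against 7.72% of all measured genes), and none was 2-fold lower (against 5.53%). The 5 genes were those of the desaturases Scd1, Scd2 and Fads2, of the acetyl-CoA synthetase Acss2 and of malic enzyme Me1. Acaca, the gene of the committed step, and Fasn were not among them. Among the members brighter than the median measured gene, Scd2 was the 1 fatty acid gene past 2-fold, beside the sterol enzymes Mvd and Tm7sf2, so the larger count of fatty acid genes rests on dimmer probes. That a larger share of fatty acid genes than of sterol genes passed 2-fold is a description of 2 arrays, and the difference between the roles was not tested.

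All 4 fatty acid desaturase genes among the members had higher signals in the co-culture. Scd2, which puts the first double bond into saturated fatty acids and is the form prominent outside the liver, read 9231 in the naive-only culture and 40185 in the co-culture, a difference of 2.11 ± 0.20 (4.33-fold). Scd1, its neighbour and close paralog on chromosome 19, read 610 and 1385 (1.17 ± 0.20, 2.26-fold). Each is read by 1 probe, and cross-hybridisation between the paralogs was not tested. Fads2, which starts the desaturation of polyunsaturated fatty acids, read 115 and 487 (2.07 ± 0.21, 4.21-fold), and its second probe gave 1.86. Fads1, the desaturase of a later step, read 782 and 1264 (0.68 ± 0.20).

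Of the genes that supply acetyl-CoA and NADPH to synthesis, Acss2 and Me1 were past 2-fold and Acly was not. Acss2, which makes acetyl-CoA from acetate, read 198 and 537 (1.43 ± 0.21, 2.69-fold), with 1.19 by its second probe. Me1, the cytosolic malic enzyme that yields NADPH, was dim at 31 units in the naive-only culture and 156 in the co-culture (2.32 ± 0.27, 5.01-fold). A second Me1 probe gave 1.89, and another was above background in the co-culture only, at 18.5 and 75.5 units. With the normexp correction the Me1 difference was 1.29, or 2.45-fold. Acly, which makes acetyl-CoA from citrate, read 21893 and 28585 (0.38 ± 0.20), while a much dimmer second probe gave -0.06.

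The synthesis and elongation genes stayed within 2-fold. Acaca, the carboxylase of the committed step, was level at 8008 and 8028 (-0.01 ± 0.20), and its 4 probes ran from -0.06 to 0.19. Fasn, the fatty acid synthase, read 650 in the naive-only culture and 488 in the co-culture (-0.42 ± 0.20), and was the lowest of the fatty acid genes. Elovl6, which lengthens saturated chains, read 1692 and 2513 (0.56 ± 0.20). Elovl5, which lengthens polyunsaturated chains, read 3094 and 3845 (0.30 ± 0.20).

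**Figure D3:**
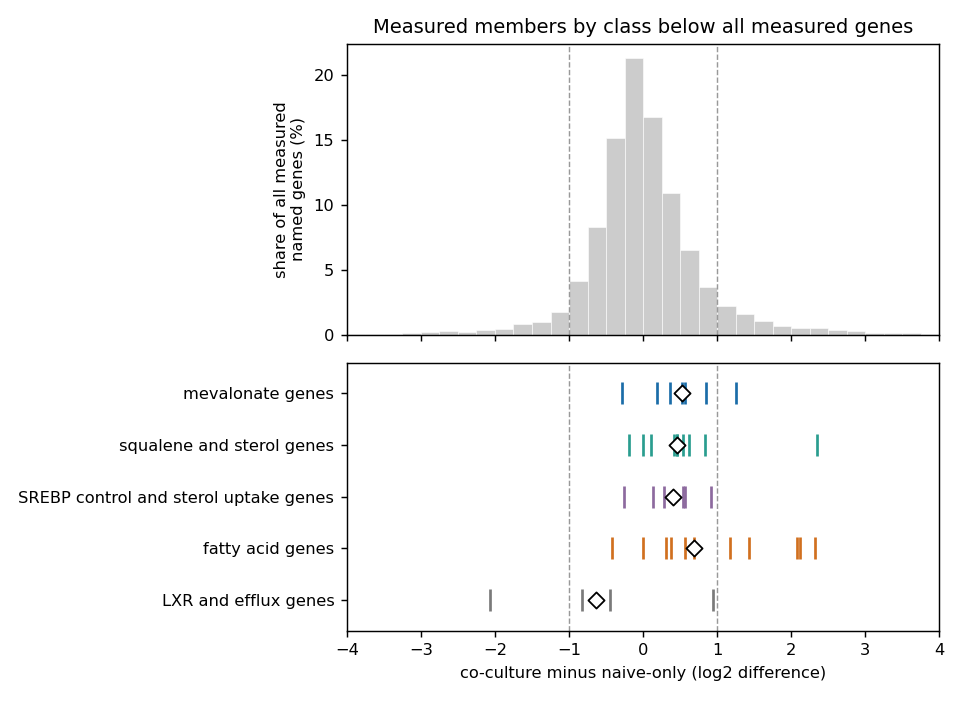
Upper panel, distribution of the log2 difference (co-culture minus naive-only) over the 14375 named genes measured, as the share of genes in bins of 0.25 log2 units. Lower panel, the measured members by role, 1 tick per gene, with diamonds at the median. Medians lie between 0.41 and 0.68 for the first 4 roles and at -0.63 for the LXR and efflux genes, against -0.05 for all genes.

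The LXR and efflux genes had the lowest median, -0.63 over 4 measured genes, of which 3 were lower on the co-culture array and 1 was higher. Mylip, the ubiquitin ligase that LXRs induce to degrade lipoprotein receptors, Vldlr among them, was the 1 member at least 2-fold lower. Its signal was 233 in the naive-only culture and 56.1 in the co-culture, a difference of -2.06 ± 0.23 (4.18-fold lower), by a probe on chromosome 13 at 45506979 to 45507038 (mm9). With the normexp correction this difference was -1.34, or 2.54-fold. Its second probe was on neither array well above background. The transcript of the ligase was lower in the co-culture and that of Vldlr higher, on different probes of 1 pair of arrays. A link between the 2 values was not tested, and the arrays do not measure the Vldlr protein.

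The LXR genes themselves were also lower. Nr1h3, the gene of LXR alpha, read 99.2 in the naive-only culture and 56.4 in the co-culture (-0.82 ± 0.25), and its second probe gave -1.25, so its probes fell on both sides of 2-fold. The normexp correction gave -0.40. Nr1h2, the gene of LXR beta, the form lymphocytes mainly express, read 13326 and 9868 (-0.44 ± 0.20). The B cell markers, whose summed level was lower on the co-culture array, moved in the same direction as Mylip and Nr1h3, and their part in these values was not tested.

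The transporters of the LXR programme were split between a dim gene and a higher one. Abcg1, which exports cholesterol to high-density lipoprotein and is an LXR target, read 217 and 419 (0.94 ± 0.21), opposite in sign to Mylip. Abca1, which exports cholesterol to lipid-poor apolipoprotein and is also an LXR target, was on neither array well above background, at 17 and 15.7 units.

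**Figure D4:**
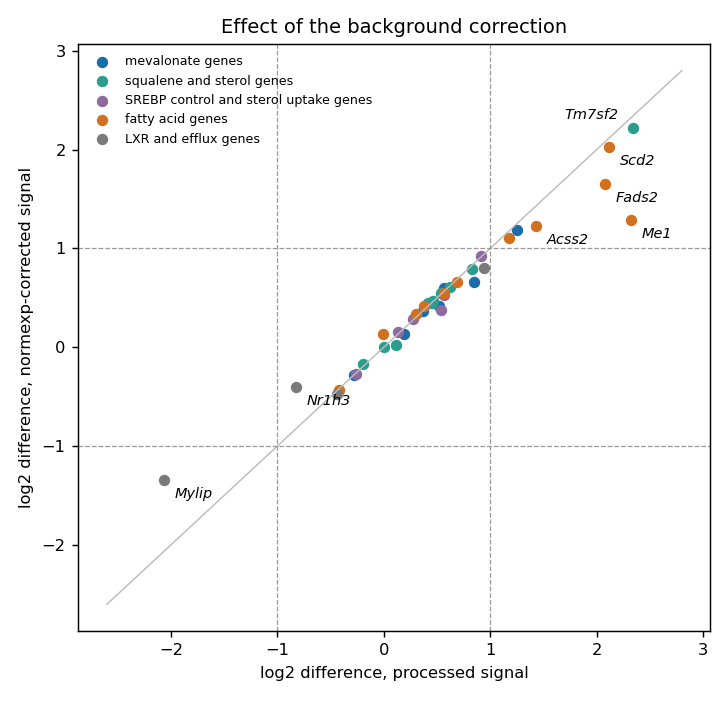
Log2 difference of each of the 38 measured members with the software's processed signal (horizontal) and with normexp background correction (vertical), coloured by role. Normexp includes an added offset of 50 units, which by itself draws dim genes towards 0. The grey line marks equality and dashed lines mark 2-fold. Most genes lie on the line, while Me1, Fads2, Mylip and Nr1h3 move towards 0, and Me1 stays at 1.29 and Mylip at -1.34.

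Probes of the same gene gave a measure of precision within the arrays. The 41 genes had 65 probes, of which 55 were measured, and 14 genes had at least 2 measured probes. The SD between probes of a gene was 0.16 at the median and 0.31 at most. Acaca, Acly and Hsd17b7 had probes of opposite sign, and none of these was past 2-fold by its brightest probe. Of the 7 genes at least 2-fold higher, Tm7sf2, Fads2, Acss2 and Me1 had a second measured probe, each also past 2-fold, while Mvd, Scd1 and Scd2 rest on 1 probe each.

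Lists of other lipid genes without members were set beside these values. Of 16 measured other sterol genes, among them genes of sterol trafficking and of SREBP processing, 1 was at least 2-fold higher and none lower, with a median of 0.06. The 1 gene was Soat2, which esterifies cholesterol for storage, at 98.5 in the naive-only culture and 1833 in the co-culture (4.21 ± 0.21, 18.5-fold) by 1 probe. Of 22 measured other genes of fatty acid and glyceride synthesis, 5 were at least 2-fold higher and none lower, with a median of 0.06. Lpin1, a phosphatidate phosphatase, read 108 and 415 (1.93 ± 0.21), and Dgat1, which completes triglycerides, read 514 and 1819 (1.81 ± 0.20). Elovl4, an elongase of very long chains, read 57 and 175 (1.61 ± 0.23), and Acacb, the carboxylase tied to control of fatty acid oxidation, read 42.4 and 114 (1.42 ± 0.25). The genes past 2-fold upwards were 6.25% of the measured other sterol genes and 22.7% of the measured other fatty acid and glyceride genes, against the 7.72% of all measured genes. Positive differences were seen for 8 of the 16 and 12 of the 22 genes.

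Other LXR-linked genes had a median near 0. Of 9 measured, 2 were at least 2-fold higher (22.2%, against 7.72% of all measured genes) and 1 lower (11.1%, against 5.53%). Their median was 0.09, and 8 of the 9 had a positive difference (88.9%, against 45.6% of all measured genes). However, 5 of the 9 lay within 2 technical errors, 3 above (33.3%, against 20%) and 1 below (11.1%, against 21.5%). Of the 4 measured LXR and efflux members, 3 had a negative difference. Smpdl3a, a phosphodiesterase gene induced by LXR, read 256 in the naive-only culture and 833 in the co-culture (1.69 ± 0.21), Abca7, a lipid transporter, 2189 and 4428 (1.01 ± 0.20), and Pltp, a phospholipid transfer protein, 159 and 58.8 (-1.45 ± 0.23). Genes of fatty acid oxidation, the opposing route, had a median of 0.40 over 19 measured. A positive difference was seen for 15 of the 19 (78.9%), the same share as among the measured members. Differences above 2 technical errors made up 42.1%, against 57.9% of the members, and none was below -2 technical errors. Past 2-fold were 2 genes, both upwards (10.5%, against 7.72% of all measured genes). They were Cpt1a, which brings fatty acids into mitochondria, at 440 and 1642 (1.89 ± 0.20), and Acadl, an acyl-CoA dehydrogenase, at 643 and 1690 (1.38 ± 0.20).

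**Figure D5:**
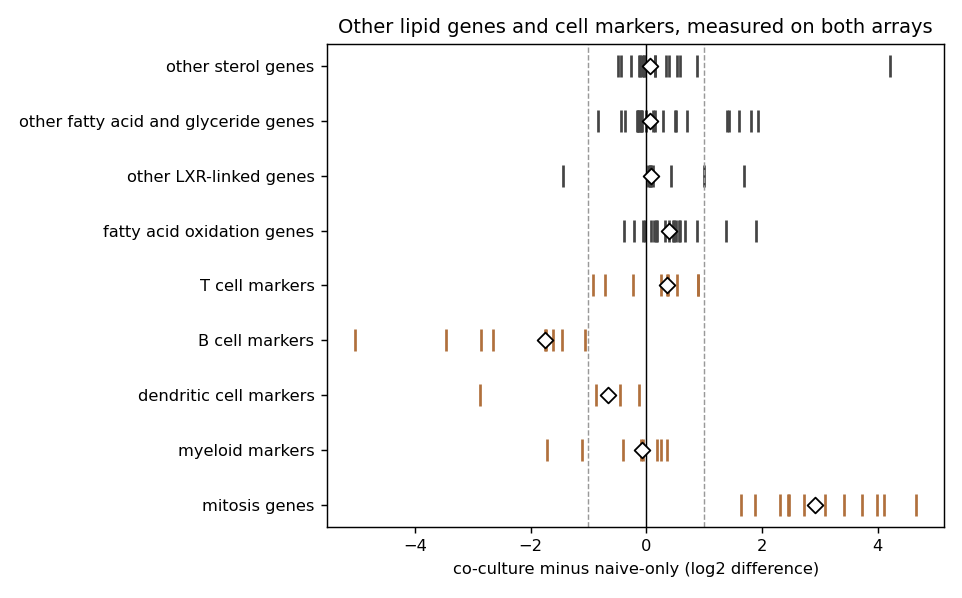
Log2 difference, co-culture minus naive-only, of the measured genes of 4 other lipid lists (dark ticks) and of cell type markers and mitosis genes (brown ticks), 1 tick per gene with diamonds at the median; dashed lines mark 2-fold. The lipid lists centre between 0.06 and 0.40 with Soat2 at 4.21, all 9 measured B cell markers lie left of the 2-fold line, and all 12 mitosis genes lie right of it.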

How the data were processed

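RNA of sorted CD4 T cells was amplified (Ovation RNA Amplification System V2), labelled with Cy3 by a kit for genomic DNA and hybridised to 1 Agilent array per culture, per the labels' protocols. Amplification can alter relative levels. The deposited scanner intensity is the authors' Feature Extraction output (10.7.1.1 per the file headers, 9.5.1.1 per the submitters' processing notes), background-subtracted. The deposited 0 and 1 calls of well above background come from the same files.

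The log2 intensity, computed here from the deposited processed signal, was averaged over the spots of a probe and set against the 75th percentile of all noncontrol probes of its array. The probe brightest on average over both arrays stood for a gene. A gene counted as measured if both arrays called this probe well above background, and was otherwise bounded by the lowest level well above background. Of 55681 probes, 46.2% (naive-only) and 45.1% (co-culture) were above background, no spot was saturated, and none of the members' spots was flagged. Both arrays were on 1 slide. The number of arrays limits the precision, and counts use 2-fold in place of a test.

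Of the 65 member probes, 61 were matched by accession to the same symbol in a RefSeq gene table (GRCm38.p6), used for names only. Per the file headers, coordinates of probes refer to mm9, and exon annotation was not used here. Of the other lipid lists, up to 4 genes past 2-fold with the largest differences were named. The members and lists were chosen with earlier results of these data known. The scripts were tested on simulated data. Alternatives covered background correction (normexp, offset 50), scaling, the deposited value table (linear intensity normalized by the authors), flagged spots, probe choice, the filter on dim genes and the fold. Python 3.11.15, numpy 2.4.6, pandas 2.3.3, matplotlib 3.10.9, R 4.3.3 and limma 3.58.1 were used.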

Additional observations from a re-analysis of the deposited data

How the results depend on the processing

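With 1 array per culture, no alternative measures variation between cultures. Under normexp Vldlr read 10.2-fold and Idi2 4.47-fold, below their bounds of 36.1-fold and 15.7-fold. The normexp setting also adds an offset of 50 units to every signal, which by itself draws differences of dim signals towards 0. The parts of the offset and of the modelled background in the normexp values were not separated. Normexp correction, median centring and quantile normalization left 7 members at least 2-fold higher and 1 lower, with no call lost or gained. The deposited value table gave nearly the same values as quantile normalization and is no separate check, and no member spot was flagged, so leaving out flagged spots could change members only through the scaling. Normexp moved 4 of 38 differences by more than their technical error (Fads2, Me1, Nr1h3 and Mylip), and the 7.72% of all measured genes called higher became 5.55%. Signs changed for Acaca or Sc5d only, both near 0, under the alternatives that read each member. The count lower was 2 with the median over measured probes, which adds Nr1h3 at -1.04, against 5.6% of all measured genes. With no filter on dim genes, 2 were lower and 8 higher, against 7.79% and 8.88% of all genes. Among the 25 members brighter than the median measured gene, 3 were at least 2-fold higher (Mvd, Tm7sf2 and Scd2) and 0 lower, against 5.05% and 2.69% of all such genes, and the medians were 0.14 for the SREBP control genes and 0.47 for the fatty acid genes; the construction leaves out dimmer genes. At 1.5-fold, 13 members were higher and 2 lower, against 15.2% and 14.4% of all measured genes. No paired analysis was possible because each group has 1 array.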

Other observations

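Chromosome 19 carries 6 of the 41 genes, namely Tm7sf2, Vldlr, Scd1, Scd2, Fads1 and Fads2. Of the 5 measured, 4 were higher by 2-fold or more in the co-culture and the lowest was Fads1 at 0.68, while Vldlr was above background on that array alone. Of all 497 measured genes on chromosome 19, 8.45% passed 2-fold upwards, with a median of 0.00. Scd1 and Scd2 are neighbours, as are Fads1 and Fads2, so these genes are not independent positions. The pattern was seen after the values were known and was not tested.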
